A study of Saccharomyces cerevisiae with 112 samples.

Results

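The 34 genes described here encode the budding yeast 26S proteasome, its transcriptional activator Rpn4 and the proteasome-binding protein Ecm29. They were chosen by name from the 5560 yeast features of the files: 14 genes of the 20S core (7 of the alpha ring and 7 of the beta ring), the 6 ATPases of the 19S base, 12 other subunits of the 19S particle, RPN4 and ECM29. All 34 were found, and all 34 passed every filter on low counts.

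The proteasome is the protease that degrades proteins tagged with ubiquitin. Its 20S core is a barrel whose beta rings hold the cutting sites and whose alpha rings gate the entry, and its 19S particle binds ubiquitin chains, removes them and unfolds the substrate with a ring of ATPases. In yeast most subunit genes share the activator Rpn4, a short-lived transcription factor that the proteasome itself degrades, and Ecm29 binds the core and the 19S particle together.

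The files come from SLAM-seq, in which RNA made in the presence of 4-thiouracil (4TU) is read with T-to-C conversions. Files of 40 of the series' 112 samples were used, and 72 samples were not analysed here. The decay series of strain KWY165 holds 2 courses without glucose and 2 courses with glucose, each sampled at 0, 5, 10, 15, 20, 30 and 45 min, and is called the chase below. A second set, of strain KWY11376, holds polysomes and total RNA taken 30 min after glucose removal (titled post-labeling, 4TU) and polysomes and total RNA with glucose (titled 30min, 4TU), with 2 libraries each. A further set, of KWY165 without 4TU, holds polysomes and total RNA without glucose for 30 min or with glucose, with 1 library each. The sources used here give neither the genotypes of the strains nor when 4TU was added relative to glucose removal. Nothing states that the replicates came from separate cultures, and a p-value reflects the spread between libraries alone.

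The chase libraries held 2710630 to 10591665 yeast reads, the 8 libraries of the second set 14965187 to 31069123, and the 4 without 4TU 15482446 to 29223067. Levels are given as RPM, reads per 1e6 yeast reads of the library. Differences are log2 differences ± SE from edgeR fits with 2 libraries per group. The SE was computed from the test, as the absolute log2 difference over the square root of its F statistic. A gene is called higher or lower where its edgeR quasi-likelihood p, adjusted by Benjamini-Hochberg over all genes tested, is under 0.05. The fits use TMM scaling, which compares a gene with the bulk of the other genes, so that a difference and a ratio of RPM values can differ: scaled to library totals, as RPM is, the median of all genes stood at 0.36 at 30 min of the chase, -0.45 in total RNA and -0.73 for polysomes against total RNA without glucose, all on the log2 scale.

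RPN4 mRNA was higher without than with glucose from 10 min of the chase on, and with TMM scaling 9 to 23 of the 34 genes were higher at each time from 10 to 45 min, the others by less than RPN4, where 22.3% to 40% of all genes were higher. At 15 min the 9 of 34 genes were a smaller share than the 30.9% of all genes, and scaled to the spike-in 1 to 5 of the 34 genes were higher at these times. RNA came from whole cultures, so that more RNA in every cell and more cells with the RNA cannot be told apart. The window counted for RPN4 (YDL020C) lies on chromosome IV from 414754 to 415363 on the minus strand, and that for ECM29 (YHL030W) on chromosome VIII from 45441 to 46024 on the plus strand. Each window covers the end of the gene and the sequence after it, and the sources used here do not name a genome build.

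RPN4 had 39.8 and 44.8 RPM in the courses without glucose at 0 min, against 71.1 and 59.6 RPM in those with glucose (log2 difference -0.60 ± 0.17, edgeR adjusted p = 0.174). At 5 min it had 47.8 and 46.4 RPM without glucose, against 41.1 and 61.7 RPM with glucose (-0.22 ± 0.18, edgeR adjusted p = 0.462). At 10 min it had 98.4 and 114 RPM without glucose, against 44.1 and 43.5 RPM with glucose (1.11 ± 0.17, edgeR adjusted p = 1.9e-05). From 10 min on, both libraries without glucose lay above both with glucose at each time. RPN4 had 182 and 207 RPM without glucose at 20 min, against 38 and 42.8 RPM with glucose (1.97 ± 0.18, edgeR adjusted p = 7.85e-10). At 30 min it had 181 and 208 RPM without glucose, against 60.9 and 41.4 RPM with glucose, which was 3.1-fold higher (1.63 ± 0.17, edgeR adjusted p = 5.06e-09). At 45 min it had 207 and 215 RPM without glucose, against 51.7 and 47.8 RPM with glucose (1.77 ± 0.17, edgeR adjusted p = 7.37e-10). Of the 34 genes RPN4 had the highest log2 difference at 10, 15, 20, 30 and 45 min, and its calls at these times held with every left-out library, with DESeq2 and with each scaling run, the spike-in included.

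**Figure D1:**
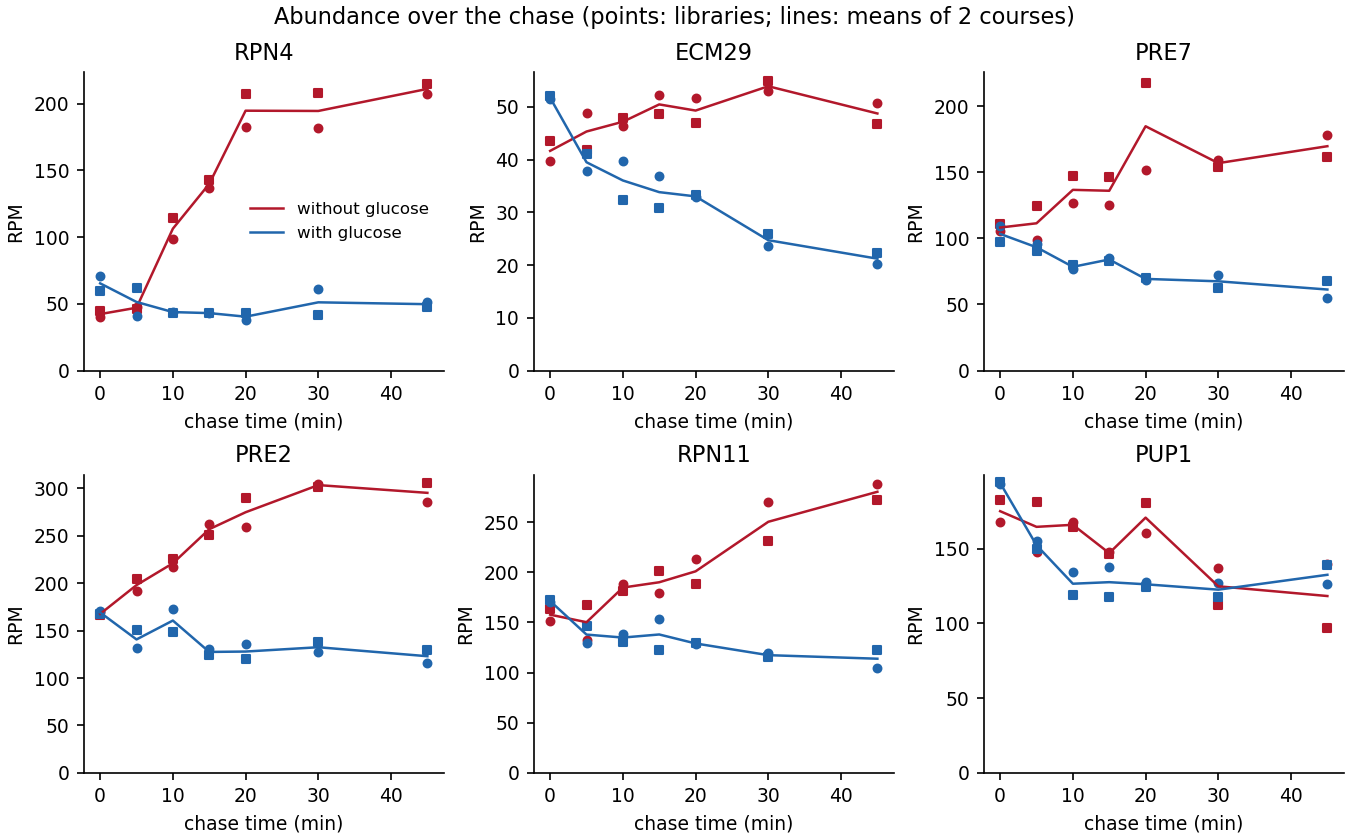
RPM against chase time in min for RPN4, ECM29, PRE7, PRE2, RPN11 and PUP1, in red without glucose and in blue with glucose, with 1 point per library (circles and squares for the 2 courses of a condition) and lines for their means. RPN4 without glucose reaches 207 and 215 RPM at 45 min, against 51.7 and 47.8 RPM with glucose, while PUP1 ends at 139.9 and 96.6 RPM without glucose, against 126 and 139 RPM with glucose.

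ECM29 had 53 and 54.8 RPM without glucose at 30 min, against 23.6 and 25.8 RPM with glucose (1.78-fold higher, log2 difference 0.84 ± 0.14, edgeR adjusted p = 8.56e-06). Scaled to the spike-in, RPN4 alone of the 34 genes was called higher at 30 min, so that this call of ECM29 was lost. In the courses with glucose it had 51.5 and 52 RPM at 0 min and 20.2 and 22.3 RPM at 45 min. In the courses without glucose it had 39.8 and 43.5 RPM at 0 min and 50.8 and 46.7 RPM at 45 min. At 30 min both libraries without glucose lay above both with glucose in RPM, a scale on which the median of all genes also stood at 0.36. In the courses with glucose both libraries of 45 min lay below both of 0 min. At 30 against 0 min ECM29 was lower with glucose (log2 difference -0.80 ± 0.14, edgeR adjusted p = 0.000625) and higher without it (0.32 ± 0.13, edgeR adjusted p = 0.0354). The rise without glucose was not called by DESeq2 (adjusted p = 0.0651) or when any of 3 of the 4 libraries was left out, and scaled to the spike-in it turned to -0.31 (edgeR adjusted p = 0.295).

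Among the subunits, 5 of 7 beta ring genes, 2 of 7 alpha ring genes, 5 of 6 base ATPases and 6 of 12 other 19S genes were higher without than with glucose at 30 min. With RPN4 and ECM29 this made 20 of 34 genes higher, against 1 higher and 6 lower when scaled to the spike-in. Of all genes tested 38.3% were called higher and 34.7% lower. By edgeR 0 of the 34 genes were lower, at an unadjusted p under 0.05 as well, and DESeq2 called 16 higher and 2 lower. The median log2 difference was 0.34 over the 34 genes and 0.06 over all genes. When 1 library was left out the count of genes higher lay between 13 (without the first library with glucose) and 16.

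PRE7 (YBL041W), a beta subunit without a cutting site, had the largest difference of the core. It had 159.7 and 154 RPM without glucose at 30 min, against 72.6 and 62.5 RPM with glucose (log2 difference 0.92 ± 0.15, edgeR adjusted p = 5.17e-06). PRE2 (YPR103W), which carries the chymotrypsin-like site, had 305 and 302 RPM without glucose, against 127 and 138 RPM with glucose (0.90 ± 0.12, edgeR adjusted p = 2.68e-07). In both genes the libraries of the conditions did not overlap in RPM, a scale on which the median of all genes also stood at 0.36. PUP1 (YOR157C), which carries the trypsin-like site, had 137 and 113 RPM without glucose, against 127 and 118 RPM with glucose, values that overlap (-0.27 ± 0.13, edgeR adjusted p = 0.0686). PRE3 (YJL001W), which carries the caspase-like site, had 292 and 264 RPM without glucose, against 147 and 169.9 RPM with glucose (0.51 ± 0.13, edgeR adjusted p = 0.0008). With TMM scaling PRE2 and PRE3 were thus called higher and PUP1 was not, and the difference between these genes was not tested. Scaled to the spike-in, RPN4 alone of the 34 genes was called higher at 30 min.

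In the alpha ring the median log2 difference was -0.17. PRE8 (YML092C) had 532 and 374 RPM without glucose at 30 min, against 295 and 265 RPM with glucose (log2 difference 0.39 ± 0.17, edgeR adjusted p = 0.0464), a call that was lost under DESeq2 and when any of 3 of the 4 libraries was left out. PUP2 (YGR253C) had 438 and 262 RPM without glucose, against 457 and 309.5 RPM with glucose (-0.44 ± 0.25, edgeR adjusted p = 0.127). The libraries of PUP2 overlapped, and in each condition they lay far apart.

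Of the base ATPases, RPT4 (YOR259C) had 221 and 173 RPM without glucose at 30 min, against 99.8 and 114 RPM with glucose (log2 difference 0.58 ± 0.17, edgeR adjusted p = 0.00418). Its call was lost without the first library of either condition. RPT5 (YOR117W) had the smallest difference of the 6, with 136 and 110.1 RPM without glucose, against 86.4 and 82.2 RPM with glucose (0.24 ± 0.13, edgeR adjusted p = 0.0894). In both genes both libraries without glucose lay above both with glucose in RPM, a scale on which the median of all genes also stood at 0.36. Among the other 19S genes RPN11 (YFR004W), the deubiquitinase of the lid, had 270.0 and 231 RPM without glucose, against 119 and 115 RPM with glucose (0.79 ± 0.13, edgeR adjusted p = 4.41e-06). RPN13 (YLR421C), a ubiquitin receptor, had 176 and 178 RPM without glucose, against 154 and 164 RPM with glucose (-0.14 ± 0.13, edgeR adjusted p = 0.321). With TMM scaling the scaffold genes RPN1 (0.65 ± 0.23, edgeR adjusted p = 0.0155) and RPN2 (0.73 ± 0.15, edgeR adjusted p = 9.53e-05) were also higher without glucose, and the ubiquitin receptor RPN10 was not called (0.07 ± 0.29, edgeR adjusted p = 0.836).

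Over the courses the number of genes higher without glucose was 0 at 0 min (0.109% of all genes), 1 at 5 min (8.14%, while 5.45% were lower), 10 at 10 min (22.3%), 9 at 15 min (30.9%), 17 at 20 min (34.1%), 20 at 30 min and 23 at 45 min (40%). At 0 min DESeq2 also called 0 higher, and 2 of the 34 genes had an unadjusted edgeR p under 0.05. The gene called at 5 min was PRE2 (log2 difference 0.40 ± 0.12, edgeR adjusted p = 0.0262), and it was lost when any 1 of the 4 libraries was left out. The genes called at 10 min were RPN4, PRE8, PRE7, RPT1, RPT2, RPT4, RPN1, RPN2, RPN3 and RPN6. The number lower was 1 at 15 min (26% of all genes), 1 at 20 min (29.6%) and 1 at 45 min (36.9%). These were RPN13 at 15 min (-0.34 ± 0.13, edgeR adjusted p = 0.0248) and at 20 min (-0.34 ± 0.13, edgeR adjusted p = 0.0259) and PUP1 at 45 min (-0.49 ± 0.13, edgeR adjusted p = 0.00192).

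**Figure D2:**
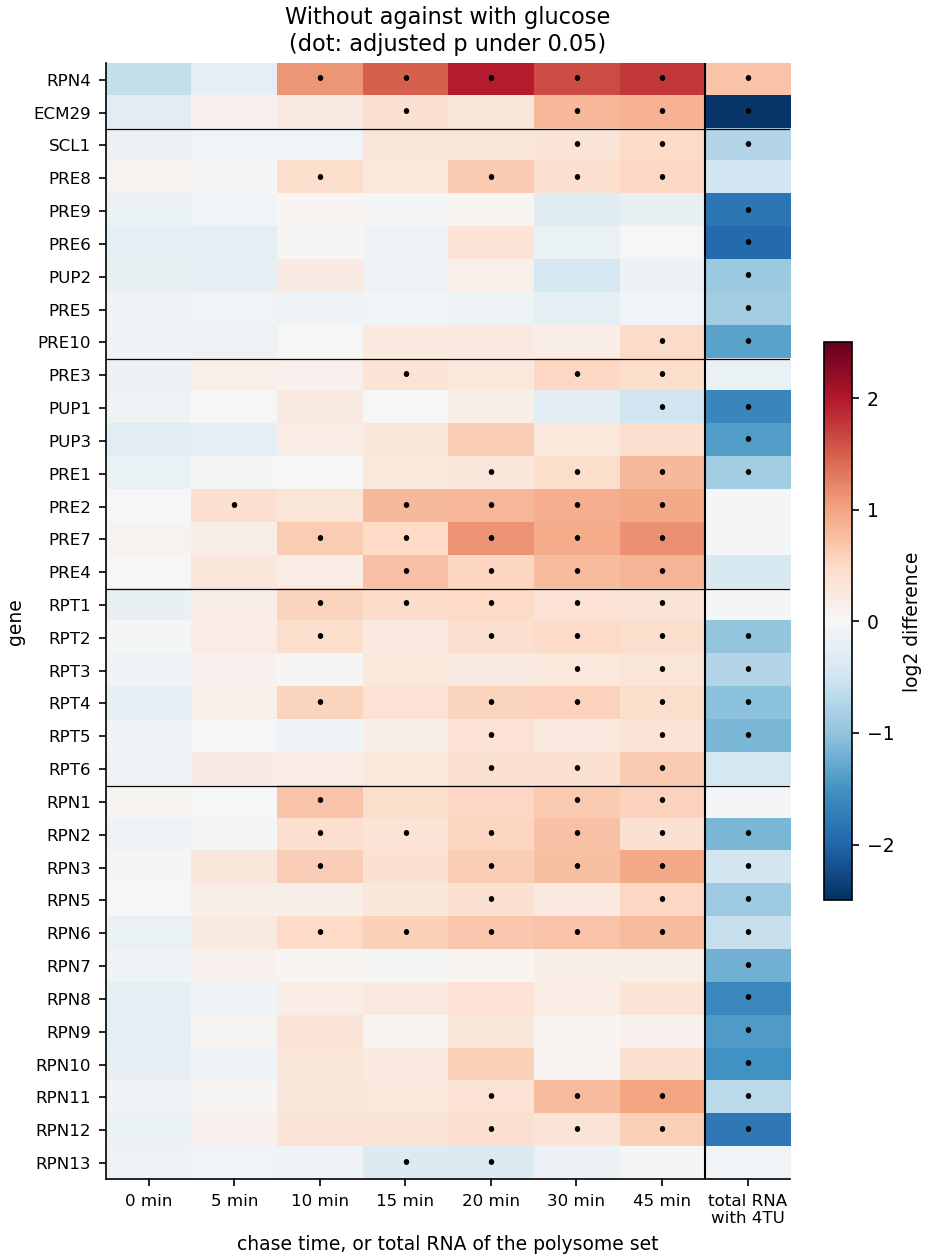
Log2 difference without against with glucose for the 34 genes (rows) at the 7 chase times and in total RNA with 4TU (last column), from TMM-scaled fits, in red where higher without glucose and in blue where lower, with a dot where the edgeR adjusted p is under 0.05. Lines part RPN4 and ECM29, the alpha ring, the beta ring, the ATPases and the other 19S genes. In the last column 24 genes are called lower and RPN4 is called higher. Scaled to the spike-in, the median of the 34 genes at 30 min is -0.13 in place of 0.34.

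Within each condition, at 30 against 0 min, 33 of 34 genes had a negative log2 difference with glucose, with a median of -0.29. Of these 3 passed the test, ECM29, PRE3 (-0.47 ± 0.13, edgeR adjusted p = 0.0211) and RPT1 (-0.43 ± 0.13, edgeR adjusted p = 0.045), where 2.5% of all genes were called lower and 3.57% higher. Without glucose 11 genes rose (36.1% of all genes) and 1, PUP1, fell (-0.54 ± 0.13, edgeR adjusted p = 0.000839, 35% of all genes), with a median of 0.19. Scaled to the spike-in this contrast turned round, with 1 gene higher and 12 lower and a median of -0.45 (16.6% of all genes were higher and 50.5% lower, with a median of -0.61). RPN4 rose without glucose (2.15 ± 0.17, edgeR adjusted p = 6.71e-11) and was not called with glucose (-0.08 ± 0.17, edgeR adjusted p = 0.857). The summed level of the 34 genes at 45 min was 9076 and 7673 RPM without glucose, against 4792 and 5326 RPM with glucose, and at 0 min it was 6617 and 7234 RPM without glucose, against 7621 and 7823 RPM with glucose. Scaled to library totals, as RPM is, the median of all genes at 45 min was itself 0.37 without against with glucose. Scaled to the spike-in, the median at 45 min was -0.24 over the 34 genes and -0.64 over all genes. The contrasts of 30 against 0 min share libraries with those without against with glucose at 30 min.

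The direction of the subunit genes in the chase depended on the scaling. With library totals 25 genes were higher without glucose at 30 min, where 47.5% of all genes were higher and 25.5% lower. Scaled to the spike-in, 1 was higher, RPN4 (1.14, edgeR adjusted p = 3.03e-05), and 6 were lower (1186 of 5525 genes were higher and 2446, or 44.3%, lower), with the median of the 34 genes at -0.13 and that of all genes at -0.42. Relative to the median of all genes, that of the 34 genes lay at 0.28 with TMM, 0.28 with library totals and 0.29 with the spike-in. The sources used here do not say how the spike-in was added.

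In total RNA of the 4TU set most subunit genes were lower without glucose. After 30 min without glucose 24 of 34 genes were lower than with glucose and 1 was higher, where 29.3% of all genes tested were lower and 29.4% higher. The median log2 difference was -0.89 over the 34 genes and -0.02 over all genes. By role, 6 of 7 alpha ring genes, 3 of 7 beta ring genes, 4 of 6 ATPases, 10 of 12 other 19S genes and ECM29 were lower. The gene that was higher was RPN4.

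RPN4 had 142 and 161 RPM in total RNA without glucose, against 139 and 110.5 RPM with glucose (log2 difference 0.72 ± 0.20, edgeR adjusted p = 0.00544). Its call was lost with library totals (0.28, edgeR adjusted p = 0.29) and without the second library without glucose (0.63, edgeR adjusted p = 0.0635). ECM29 had 29.8 and 27.7 RPM without glucose, against 255 and 165 RPM with glucose, 5.36-fold lower and the lowest of the 34 genes (-2.42 ± 0.20, edgeR adjusted p = 7.05e-08).

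PRE6 (YOL038W), of the alpha ring, had 67.3 and 69.2 RPM without glucose, against 423 and 286 RPM with glucose (log2 difference -1.94 ± 0.22, edgeR adjusted p = 1.92e-06). PUP1 had 108 and 119 RPM without glucose, against 578 and 377 RPM with glucose (-1.63 ± 0.21, edgeR adjusted p = 8.94e-06). RPN12 (YFR052W), of the lid, had 51.6 and 53.7 RPM without glucose, against 332 and 169 RPM with glucose (-1.79 ± 0.28, edgeR adjusted p = 5.2e-05). In these 3 genes both libraries without glucose lay below both with glucose in RPM, a scale on which the median of all genes also stood at -0.45. Of the ATPases RPT5 was lowest (-1.13 ± 0.17, edgeR adjusted p = 4.54e-05) and RPT1 was not called (-0.05 ± 0.18, edgeR adjusted p = 0.832). PRE2 (-0.02 ± 0.18, edgeR adjusted p = 0.927) and PRE7 (-0.04 ± 0.19, edgeR adjusted p = 0.851), the subunit genes with the largest differences at 30 min of the chase, were not called either.

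The summed level of the 34 genes in these libraries was 5699 and 6044 RPM without glucose, against 15379 and 11759.8 RPM with glucose. Without 4TU it was 5495 RPM without glucose, against 4810.5 RPM with glucose. The libraries with glucose and 4TU stood apart from the other total RNA libraries. Centred on the median gene, total RNA with glucose was higher with 4TU than without it in 34 of 34 genes, by a median of 1.05 on the log2 scale (2.07-fold), and by at least 2-fold in 20 genes (9.2% of all genes). ECM29 was the highest at 2.14 and RPN13 the lowest at 0.42. Without glucose the same ratio had a median of 0.14, and 0 genes passed 2-fold upward (8% of all genes, while 7.42% passed it downward). In polysomes the same ratio had a median of -0.26 without glucose, with 0 genes past 2-fold upward and 2 downward (9.02% and 11% of all genes), and it was 2.30-fold with glucose, with 20 genes past 2-fold upward (11.7% of all genes). Strain and 4TU differ together here and cannot be told apart, and with 1 library without 4TU per condition there is no test.

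Without 4TU, RPN4 had 132 RPM in total RNA without glucose, against 48.6 RPM with glucose. Centred on the median gene its log2 ratio was 1.33, and of the 34 genes 1, RPN4, was at least 2-fold higher (18.3% of all genes were). ECM29 had 35 RPM without glucose, against 34.5 RPM with glucose. The median ratio of the 34 genes was 0.02, and the lowest was that of PUP3 at -0.71.

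**Figure D3:**
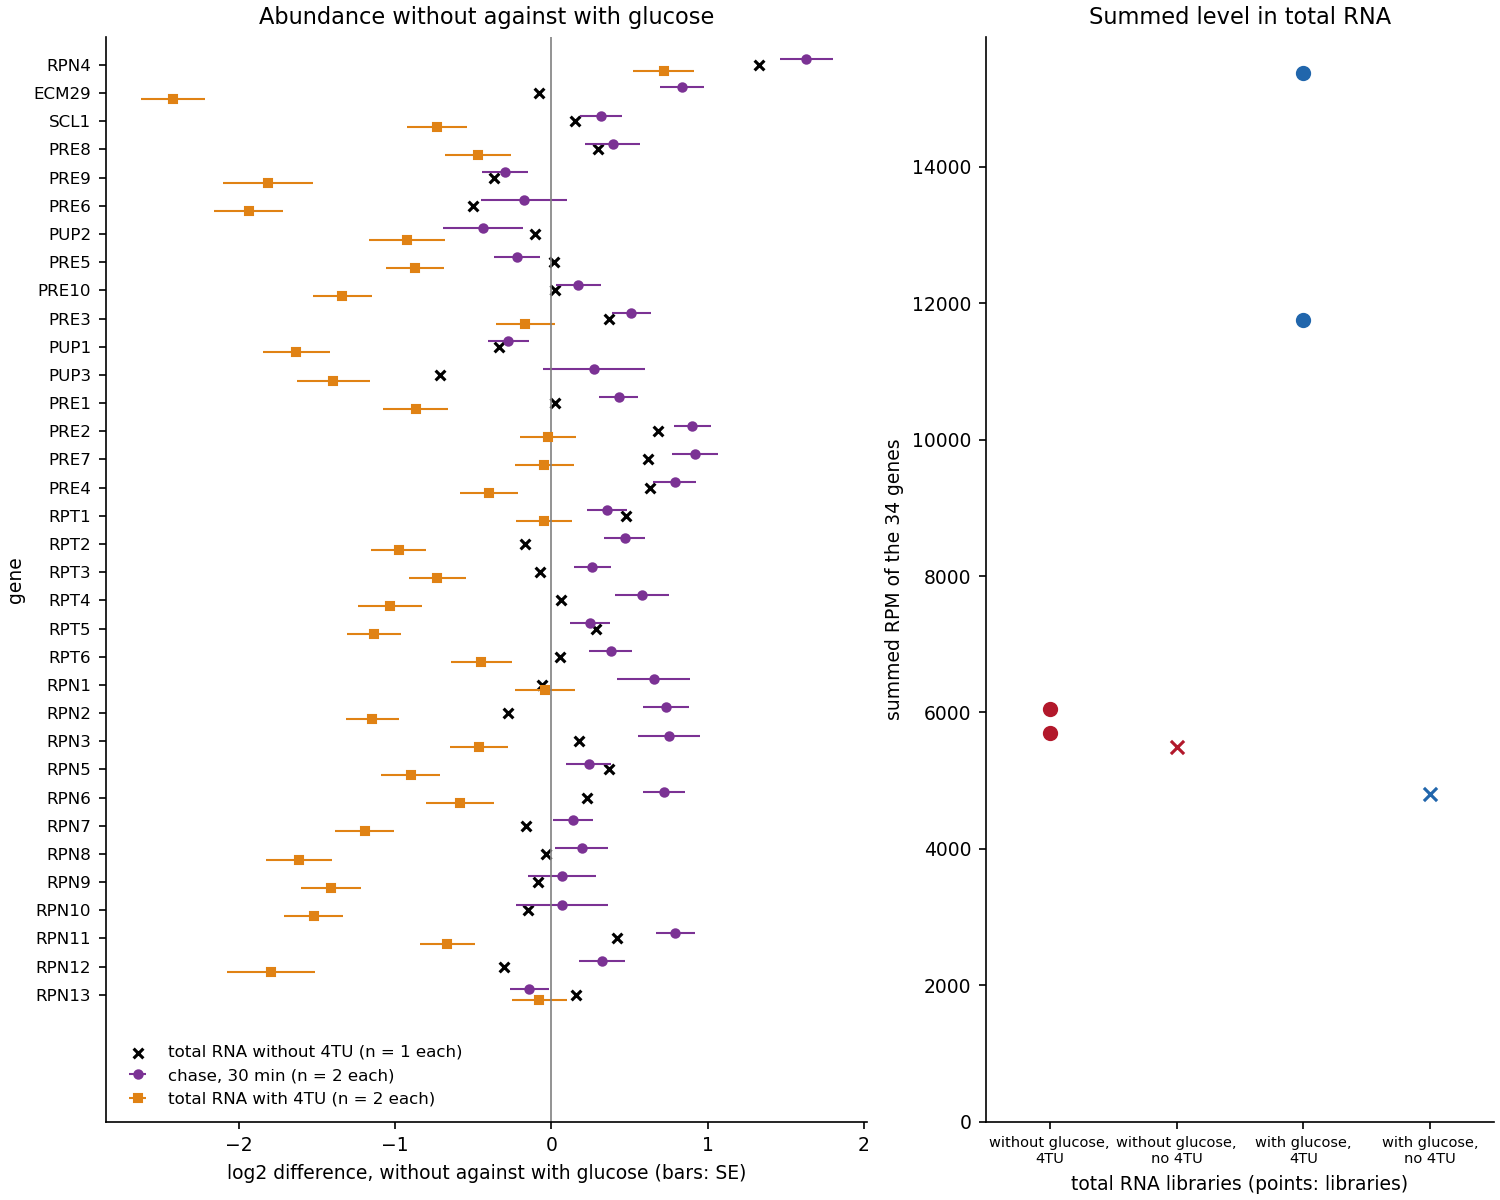
Left, log2 difference without against with glucose of each gene at 30 min of the chase (circles) and in total RNA with 4TU (squares), with SE and 2 libraries per group, and in total RNA without 4TU (crosses, 1 library each, no error). Right, the summed RPM of the 34 genes in each total RNA library: the 2 with 4TU and without glucose lie at 5699 and 6044 RPM, against 15379 and 11759.8 RPM for the 2 with 4TU and with glucose.

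The change without glucose at 30 min of the chase was set against that in total RNA with 4TU in 1 fit. It was higher in the chase for 31 of 34 genes (24.1% of all genes were higher and 19.3% lower), with a median difference of 1.30 over the 34 genes and 0.08 over all genes. ECM29 differed most (3.26 ± 0.26, edgeR adjusted p = 7.86e-07), followed by RPN12 (2.12 ± 0.30, edgeR adjusted p = 5.52e-05). PRE6 (1.76 ± 0.32, edgeR adjusted p = 0.000512), PUP3 (1.67 ± 0.27, edgeR adjusted p = 0.00013) and RPT4 (1.62 ± 0.28, edgeR adjusted p = 0.000268) had the largest differences of the alpha ring, the beta ring and the ATPases. RPN4 differed as well (0.92 ± 0.26, edgeR adjusted p = 0.0106), a call lost when any of 3 of the 8 libraries was left out. The genes not called were PUP2 (0.49 ± 0.35, edgeR adjusted p = 0.27), RPT1 (0.40 ± 0.25, edgeR adjusted p = 0.195) and RPN13 (-0.06 ± 0.22, edgeR adjusted p = 0.841). Strain and labelling differ between the sets, and the protocol text names a 3′ end kit (QuantSeq) for SLAM-seq and a directional RNA-seq kit (NextFlex) for the polysome work, so that these cannot be told apart from each other.

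Polysomes are mRNAs that carry several ribosomes, and their ratio to total RNA compares the loading of an mRNA with that of the others. Without glucose 20 of 34 genes were lower in polysomes than in total RNA (24.4% of all genes) and 2 higher (25.7%), with a median log2 difference of -0.72 against 0.01 over all genes. With glucose 10 were lower (13.6% of all genes, while 15.3% were higher), with a median of -0.33 against -0.02. The count with glucose was 5 without the first total RNA library, and with library totals 32 genes were lower without glucose, against 24 with glucose, where 50.1% of all genes were lower without glucose, against 37% with glucose.

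RPN4 had 42.4 and 65.5 RPM in polysomes, against 142 and 161 RPM in total RNA, without glucose (log2 difference -0.77 ± 0.20, edgeR adjusted p = 0.0048). With glucose it had 52.9 and 58.2 RPM in polysomes, against 139 and 110.5 RPM in total RNA (-0.64 ± 0.20, edgeR adjusted p = 0.0255). ECM29 had 9.56 and 12.1 RPM in polysomes, against 29.8 and 27.7 RPM in total RNA, without glucose (-0.67 ± 0.21, edgeR adjusted p = 0.013). With glucose it had 88.8 and 65.4 RPM in polysomes, against 255 and 165 RPM in total RNA (-0.92 ± 0.19, edgeR adjusted p = 0.0027). Both genes were lower in polysomes in both conditions, although each call of RPN4, and that of ECM29 without glucose, was lost when either of 2 libraries was left out.

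PRE2 had 396 and 512 RPM in polysomes, against 399 and 401 RPM in total RNA, without glucose, values that overlap (log2 difference 0.92 ± 0.18, edgeR adjusted p = 0.000658). It was called higher in polysomes together with RPN2 (0.49 ± 0.17, edgeR adjusted p = 0.0248), and neither was called with library totals (0.18 for PRE2 and -0.24 for RPN2). Without 4TU, PRE2 had 681 RPM in polysomes, against 278 RPM in total RNA, without glucose, and 162 RPM in polysomes, against 161 RPM in total RNA, with glucose. In these unreplicated libraries without glucose 1 of the 34 genes, PRE2, was at least 2-fold higher in polysomes (12.9% of all genes) and 10 were at least 2-fold lower (11.7% of all genes), with a median of -0.54.

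PUP2 had 15.9 and 19.3 RPM in polysomes, against 107 and 131 RPM in total RNA, without glucose (log2 difference -2.02 ± 0.26, edgeR adjusted p = 1.53e-05). RPN12 had 5.13 and 10.5 RPM in polysomes, against 51.6 and 53.7 RPM in total RNA, without glucose (-2.04 ± 0.30, edgeR adjusted p = 5.22e-05). In both genes the polysome libraries lay far below those of total RNA. PRE4 of the beta ring (-1.91 ± 0.19, edgeR adjusted p = 2.14e-06) and the ATPase gene RPT3 (-1.45 ± 0.19, edgeR adjusted p = 1.84e-05) were the lowest of their classes without glucose. They were also the lowest of their classes with glucose (PRE4 -0.80 ± 0.18, edgeR adjusted p = 0.00464, and RPT3 -0.83 ± 0.18, edgeR adjusted p = 0.00369), where RPN1 was the lowest of the 34 genes (-1.14 ± 0.20, edgeR adjusted p = 0.000644).

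**Figure D4:**
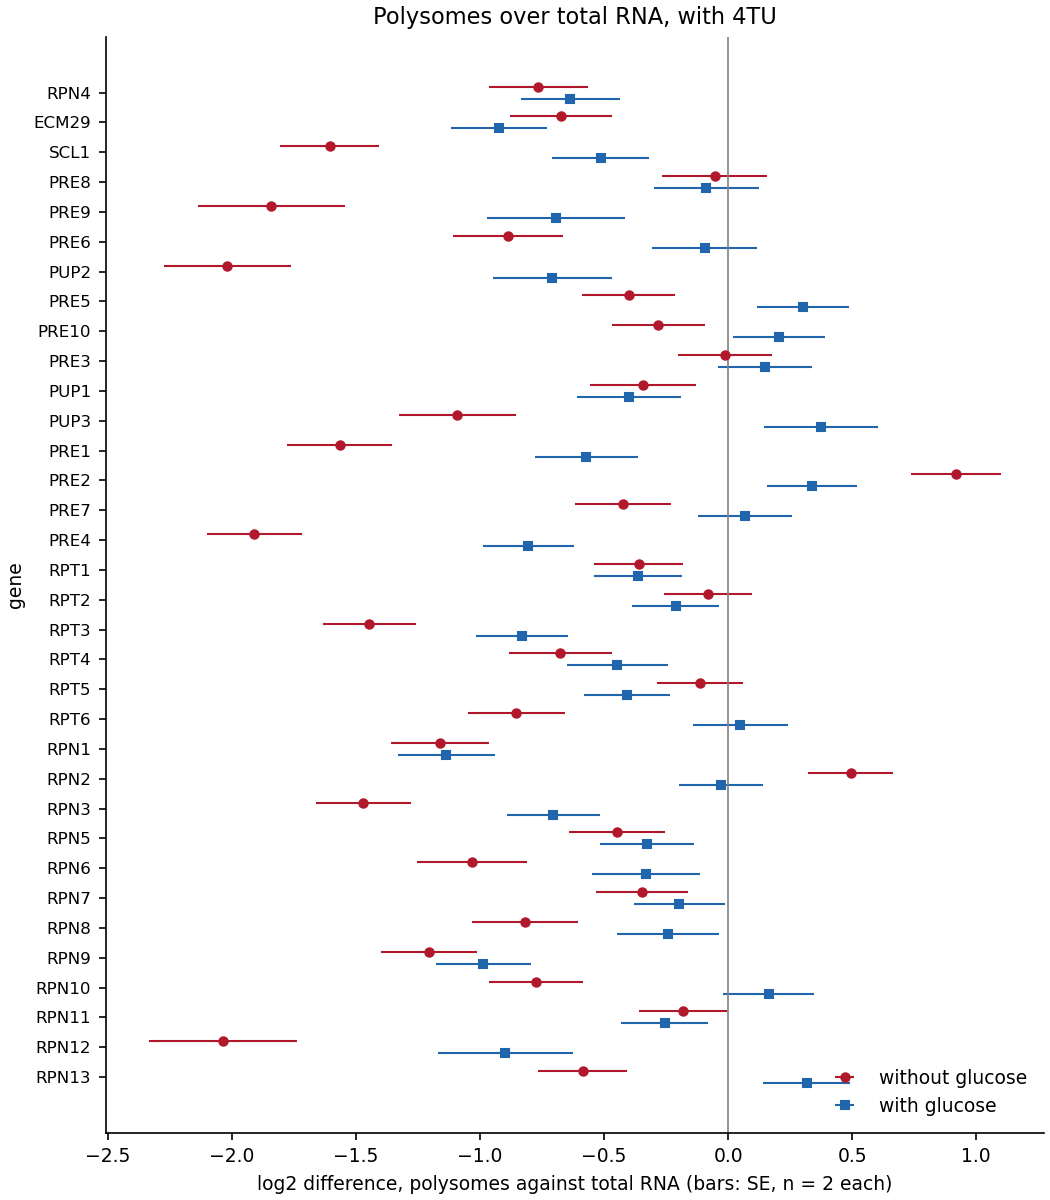
Log2 difference of polysomes against total RNA for each gene without glucose (circles) and with glucose (squares), with SE and 2 libraries per group, in the set with 4TU. Without glucose PRE2 lies at 0.92, PUP2 at -2.02 and RPN12 at -2.04.

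The polysome ratio changed between conditions in 8 of 34 genes, which were lower without glucose (of all genes 8.01% were lower and 8.16% higher). The median change was -0.49 over the 34 genes and 0.01 over all genes. The genes were SCL1, PUP2, PUP3, PRE1, PRE4, RPT6, RPN10 and RPN13. PUP3 (YER094C), a beta subunit, had 54.3 and 36.1 RPM in polysomes, against 159 and 168 RPM in total RNA, without glucose. With glucose it had 653 and 407 RPM in polysomes, against 629 and 527 RPM in total RNA. The change was -1.47 ± 0.33, edgeR adjusted p = 0.0071 in PUP3, -1.31 ± 0.35, edgeR adjusted p = 0.0173 in PUP2 and -0.90 ± 0.27, edgeR adjusted p = 0.0343 in RPT6. RPN4 (-0.13 ± 0.28, edgeR adjusted p = 0.797) and ECM29 (0.25 ± 0.28, edgeR adjusted p = 0.605) were not called. The count of genes lower was 1 without the second total RNA library without glucose and 12 without the second polysome library with glucose.

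Labelled reads are those that the deposited tables count as reads with T-to-C conversions. In the chase the tables hold 1.32 to 1.75 conversions per labelled read, but 0.335 to 0.614 in the 4TU polysome set and 0.761 to 0.924 without 4TU, so that not every labelled read there can carry a counted conversion, and how the column was made in those sets is not known. In the chase labelled reads made up 53.6% and 53.6% of the reads of the 34 genes without glucose at 0 min, against 52.5% and 53.1% with glucose. At 45 min they made up 27.6% and 31.1% without glucose, against 9.61% and 10.7% with glucose. Over all yeast genes the shares at 45 min were 34.9% and 38.9% without glucose, against 18.8% and 18.3% with glucose. The labelled share of the 34 genes thus fell less without glucose, as that of all genes did. A share depends on the unlabelled reads as well as the labelled ones, so that it does not measure loss of label alone.

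Over the chase the labelled odds (log2 of labelled over unlabelled reads) fell in 34 of 34 genes without glucose (of all genes 91.8% fell and 0.0957% rose) and in 34 of 34 with glucose (99.8%). The median slope was -0.37 per 10 min without glucose, against -0.76 per 10 min with glucose, and over all genes -0.38 without glucose, against -0.77 with glucose. The slope was less steep without glucose in 34 of 34 genes (93.2% of all genes, while it was steeper in 0.0383%), by a median of 0.37 per 10 min against 0.39 over all genes, so that these counts and medians of the odds lay near those of all genes. On labelled reads alone, with TMM scaling, the median difference was 0.45 over the 34 genes and 0.32 over all genes. It was called in 34 of 34 genes (73.6% of all genes). The median slope without glucose was -0.13 there, against -0.21 over all genes. The fit of the odds takes the libraries of a course as independent. Limma with 1 slope per course, fitted to the log2 labelled share in place of the odds, called the same number of the 34 genes.

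RPN4 had the steepest slope of the 34 genes in both conditions, -0.48 ± 0.04, edgeR adjusted p = 3.06e-19, per 10 min without glucose, against -0.82 ± 0.05, edgeR adjusted p = 7.79e-28, per 10 min with glucose. Its labelled share without glucose was 66% and 57.6% at 0 min and 27% and 26.4% at 45 min. With glucose it was 61.5% and 62.5% at 0 min and 6.21% and 10.6% at 45 min. The labelled reads of RPN4 without glucose, in RPM, were 26.3 and 25.8 at 0 min, 74.5 and 85.2 at 20 min and 56.1 and 56.7 at 45 min. With glucose they were 43.7 and 37.3 at 0 min, 9.96 and 11.1 at 20 min and 3.21 and 5.08 at 45 min. Labelled RPN4 thus increased in RPM without glucose while its share fell. Tested on labelled reads alone with TMM scaling, 1 of the 34 genes, RPN4, had a rising slope without glucose (0.25 per 10 min, edgeR adjusted p = 0.00445), as 15% of all genes did. Labelled reads were not scaled to the spike-in. For all reads at 30 against 0 min without glucose, the spike-in moved the median of all genes from 0.03 to -0.61.

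Among the subunits the slope without glucose ran from -0.45 per 10 min in RPN7, of the lid, to -0.30 in PRE5, of the alpha ring. With glucose it ran from -0.81 in RPN11 to -0.62 in PRE5. The difference of the slopes was largest in PUP3 (0.46 ± 0.04, edgeR adjusted p = 5.16e-18) and smallest in RPN7 (0.29 ± 0.05, edgeR adjusted p = 3.2e-07), and ECM29 lay between them (0.43 ± 0.08, edgeR adjusted p = 1.22e-06).

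In the sets other than the chase RPN3, of the lid, had shares of labelled reads apart from those of the other genes. RPN5, also of the lid, stood far apart with 4TU only. Without 4TU, RPN3 (YER021W) had 40.2% labelled in total RNA without glucose (exact Clopper-Pearson 95% interval 38.52% to 41.89%), against 38.5% with glucose (36.89% to 40.05%), intervals that cover counting error only. RPN5 had 0.121% in total RNA without glucose and without 4TU, against 0.247% with glucose. The highest of the other 32 genes had 0.184% without glucose and 0.13% with glucose there. RPN4 had 0 of 1114 labelled reads with glucose and without 4TU, whose exact 95% interval reaches 0.3306% (3 reads of that total would be 0.269%). With 4TU, total RNA without glucose had 90.3% and 90.1% labelled for RPN3 and 71.8% and 72.3% for RPN5, and 1.51% and 1.44% for the sum of the other 32 genes. At 45 min of the chase with glucose RPN3 had 12.4% and 12.4% and RPN5 7.79% and 11.9%. Single chase libraries of RPN3 stood high as well. With glucose at 0 min it had 68.8% in the first library and 60.5% in the second. Without glucose at 15 min it had 68.6% in the first and 52.5% in the second. What sets these genes apart was not tested. Counts of labelled odds in total RNA and polysomes are given with and without them, while those of slopes include them.

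**Figure D5:**
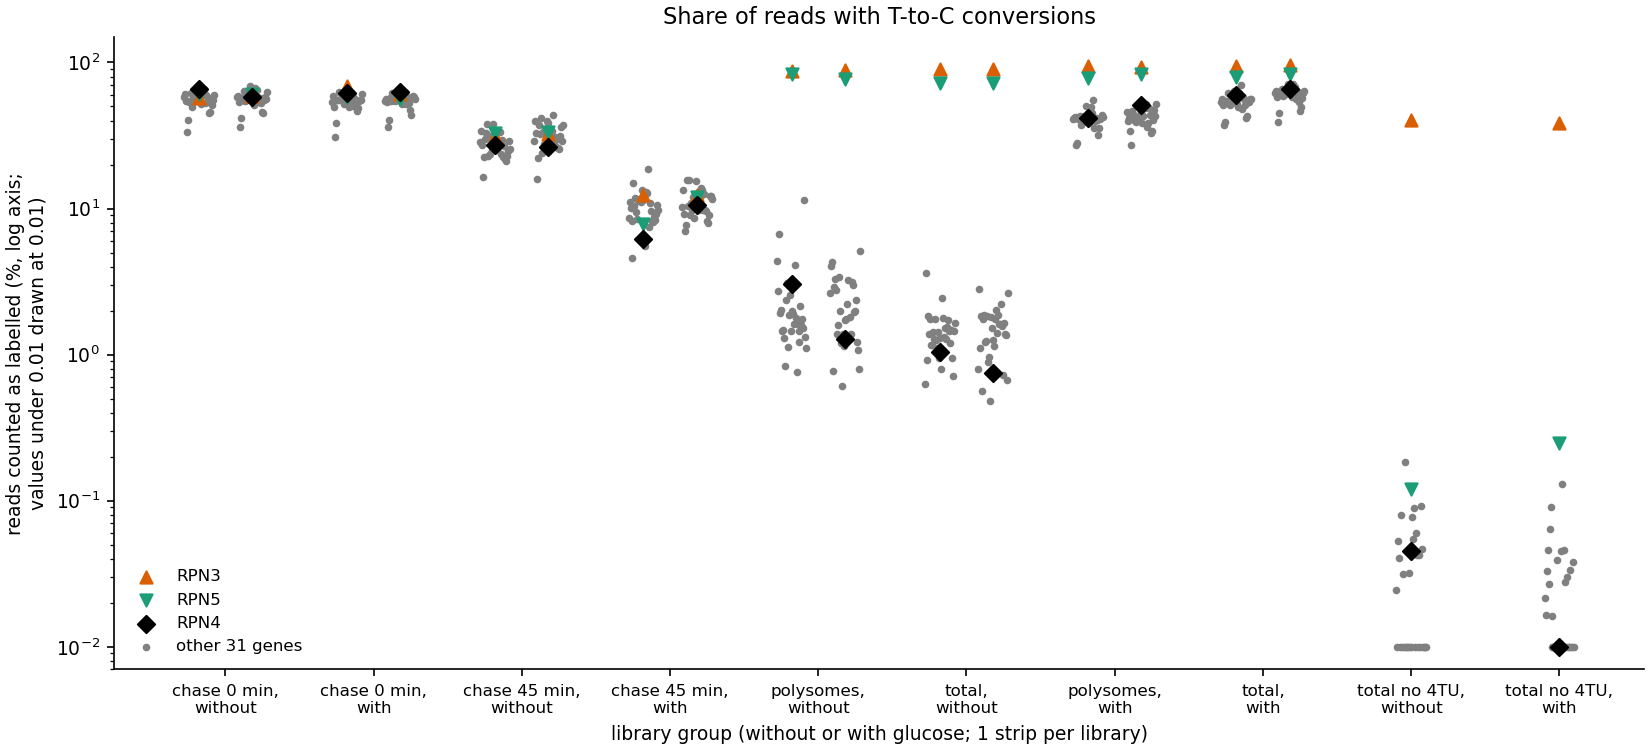
Share of reads counted as labelled (percent, log axis, values under 0.01 drawn at 0.01) for the 34 genes, with 1 strip per library and triangles and diamonds for RPN3, RPN5 and RPN4. In total RNA with 4TU the 32 genes other than RPN3 and RPN5 have medians of 1.35% and 1.46% without glucose, against 54.7% and 62.2% with glucose, while RPN3 lies at 90.3% and 90.1% without glucose.

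The labelled odds in total RNA with 4TU were lower without than with glucose in 34 of 34 genes (99.6% of all genes), and in 32 of 32 without RPN3 and RPN5. The median log2 difference was -6.63 over the 34 genes and -6.49 over all genes. The summed share of the 32 genes in total RNA with glucose was 53.8% and 60.7%. In polysomes it was 1.86% and 1.96% without glucose, against 40.4% and 42.1% with glucose.

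With glucose the labelled odds were lower in polysomes than in total RNA in 25 of 34 genes (34.4% of all genes), with a median log2 difference of -0.93 against -1.02 over all genes. The count was the same without RPN3 and RPN5. PRE2 had 43% and 40.5% labelled in polysomes, against 60.1% and 65.8% in total RNA, the largest difference of the 34 genes (-1.25 ± 0.25, edgeR adjusted p = 0.000144). RPN4 had 42% and 51.1% in polysomes, against 59.7% and 65.4% in total RNA (-0.94 ± 0.38, edgeR adjusted p = 0.0503). The count was 2 without the second total RNA library and at most 18 when any other library was left out, and 7 when conversions over covered T bases replaced labelled reads.

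Without glucose 2 of 34 genes had higher labelled odds in polysomes (of all genes 0.725% were higher and 0.186% lower), with a median of 0.45 against 0.02 over all genes. These were SCL1 and PRE9, both of the alpha ring. SCL1 (YGL011C) had 4.37% and 2.65% labelled in polysomes, against 0.629% and 0.8% in total RNA (log2 difference 2.31 ± 0.38, edgeR adjusted p = 0.000175). PRE9 (YGR135W) had 6.67% and 4.33% in polysomes, against 0.922% and 1.11% in total RNA (2.44 ± 0.53, edgeR adjusted p = 0.00637). In both the libraries did not overlap, but the shares rest on few reads: 36 and 27 labelled reads in polysomes, against 25 and 32 in total RNA, for SCL1, and 11 and 14 in polysomes, against 12 and 13 in total RNA, for PRE9. Without the first total RNA library PRE9 was not called (edgeR adjusted p = 0.0779), and without the second polysome library 4 genes were. RPN12 had 11.5% and 1.07% in polysomes, against 0.713% and 1.37% in total RNA, a difference carried by the first polysome library (2.30 ± 0.76, edgeR adjusted p = 0.124).

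The contrast of labelled odds between polysomes and total RNA was higher without than with glucose in 17 of 34 genes (17.5% of all genes, while 0.0929% were lower), with a median difference of 1.31 against 1.11 over all genes. The count was the same without RPN3 and RPN5, 3 without the second total RNA library with glucose, and 3 when conversions over covered T bases replaced labelled reads. PRE9 (3.19 ± 0.61, edgeR adjusted p = 0.0003) and SCL1 (3.15 ± 0.47, edgeR adjusted p = 9.44e-06) had the largest differences. RPN4 was called (2.15 ± 0.64, edgeR adjusted p = 0.0155), but not when any of 5 of the 8 libraries was left out.

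Genes that build, feed or regulate the proteasome were examined as 3 further lists. Their values are from the TMM-scaled fits alone, and are not given for other scalings or with libraries left out. At 30 min of the chase the median of all genes was 0.06 with TMM and -0.42 with the spike-in, so that directions there depend on the scaling. Of 15 assembly factors and alternative caps, 8 were higher and 4 lower without glucose at 30 min of the chase. Of all genes 38.3% were higher and 34.7% lower there, and 29.4% higher and 29.3% lower in total RNA, so that several counts of these lists lie near those shares. The assembly factor gene TMA17 led them (log2 difference 4.17 ± 0.21, edgeR adjusted p = 6.88e-15), followed by NAS2, which encodes an assembly chaperone of the base (2.12 ± 0.19, edgeR adjusted p = 4.5e-10). Both were already higher at 5 min (TMA17 0.90 ± 0.19, edgeR adjusted p = 0.00227, and NAS2 0.76 ± 0.20, edgeR adjusted p = 0.0102), when RPN4 was not called. In total RNA with 4TU 5 of the 15 were higher and 8 lower. RPN14, another chaperone of the base, was the first by p-value there (2.26 ± 0.19, edgeR adjusted p = 5.62e-08), and UMP1, the chaperone of core assembly, was lower (-1.48 ± 0.19, edgeR adjusted p = 6.4e-06).

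Of 19 ubiquitin and Cdc48 genes, 14 were higher and 2 lower at 30 min of the chase, with the polyubiquitin gene UBI4 (log2 difference 3.72 ± 0.17, edgeR adjusted p = 1.96e-15) and the ubiquitin-conjugating enzyme gene UBC5 (2.30 ± 0.19, edgeR adjusted p = 5.89e-11) first by p-value. In total RNA with 4TU 1 of the 19 was higher, UBI4 (1.21 ± 0.21, edgeR adjusted p = 0.000143), and 9 were lower, with UFD1, a cofactor of Cdc48, first by p-value (-2.06 ± 0.19, edgeR adjusted p = 1.58e-07). Of 7 regulators of Rpn4, 2 were higher and 1 lower at 30 min of the chase. UBR2, a ubiquitin ligase that acts on Rpn4, was higher (1.02 ± 0.27, edgeR adjusted p = 0.0017), and so was the heat shock factor gene HSF1 (0.51 ± 0.16, edgeR adjusted p = 0.00592), whereas MUB1, the partner of Ubr2, was lower (-0.61 ± 0.27, edgeR adjusted p = 0.0467). In total RNA with 4TU 4 of the 7 were lower and 0 higher, with YAP1 (-2.02 ± 0.20, edgeR adjusted p = 3.92e-07) first by p-value and MUB1 among them (-2.87 ± 0.34, edgeR adjusted p = 3.04e-06). For polysomes against total RNA without glucose 2 of the 15 assembly genes were lower and 5 higher, and of the 19 ubiquitin and Cdc48 genes 6 were lower and 6 higher. Of the 7 regulators 1 was lower and 3 were higher, where 24.4% of all genes were lower and 25.7% higher.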

How the data were processed

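Members and gene lists were chosen with earlier results of these data known. Per the submitters' processing notes the authors used slamdunk 0.4.3, and Bowtie, TopHat2, cutadapt and featureCounts are also named, while the sources used here name no genome build. The deposited tables hold raw counts for each 3′ window: all reads, labelled reads (named as reads with T-to-C conversions), conversions and covered T bases. The T content given for a window was the same in the chase and in the other sets for 95 of 5560 windows. The reason was not tested, and the runs on covered T bases carry this limit. RPM was computed here from the deposited counts. Windows of the 34 genes start 250 or 251 bases before the gene's end. Of 5560 yeast features 5558 matched RefSeq names, and at most 3.71% of a member's reads were multimapped. Per the labels' protocols, RNA for SLAM-seq was alkylated with iodoacetamide. Conversions per labelled read were 1.32 to 1.75 in the chase, 0.335 to 0.614 in the 4TU polysome set and 0.761 to 0.924 without 4TU, so that outside the chase not every labelled read can carry a counted conversion. How that column was made there is not known, and labelled shares are compared only within a set.

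Abundance was tested on counts with edgeR 4.0.16 (R 4.3.3; TMM, quasi-likelihood, Benjamini-Hochberg over 5525 genes in the chase, 5540 in total RNA and polysomes and 5533 across both). All libraries of a set shared the estimate of spread. Labelled odds were tested as labelled against unlabelled counts in the same library, over 5224 genes for slopes and 5381 for polysomes and total RNA. Alternatives were DESeq2 1.42.0, its size factors, library totals, 6 spike-in features with reads (0.946% to 2.66% of reads), filters, a replicate block, limma 3.58.1 and leaving out each library. The code was checked on simulated data. The text names RPN4 and ECM29, the highest and lowest gene of a role in a comparison, and in the related lists the smallest p-values. Other members given in full (among them the genes of the cutting subunits, SCL1, RPN1, RPN2, RPN3, RPN5 and RPN10) were chosen after their values were seen.

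Same-numbered libraries correlated between -0.34 and 0.33, so that numbers were not taken as pairs. No promoter or protein sequences were used here.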

Additional observations from a re-analysis of the deposited data

Results flagged for a closer look

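Differences between effects in 2 settings that passed their own interaction test (edgeR, adjusted p under 0.05) are given as log2 values, with no explanation tested. The change without glucose was higher at 30 min of the chase than in total RNA with 4TU in 31 of 34 genes (24.1% of all genes), by 0.92 in RPN4, 3.26 in ECM29, 1.76 in PRE6, 1.67 in PUP3, 1.62 in RPT4 and 2.12 in RPN12. The polysome to total RNA ratio was lower without than with glucose in 8 of 34 genes (8.01% of all genes, and 1 to 12 of the 34 with 1 library left out), by -1.31 in PUP2, -1.47 in PUP3 and -0.90 in RPT6. The labelled odds of polysomes against total RNA were higher without than with glucose in 17 of 34 genes (17.5% of all genes, and 3 to 15 of the 34 with 1 library left out), by 2.15 in RPN4, 3.19 in PRE9, 2.16 in PRE1, 2.02 in RPT5 and 2.93 in RPN12. The value of RPN12 rests on 11 labelled of 96 reads in 1 polysome library without glucose, against 2 of 187 in the other, and the call of RPN4 was lost when any of 5 of the 8 libraries was left out, as was that of RPN12 with any of 4.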

How the results depend on the processing

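Of 2120 values of named genes under alternatives, 1939 kept their direction and call, 128 lost the call, 40 gained one and 13 reversed, and the cause was not tested. Library totals gave 16, 24, 29 genes higher at 10, 15, 20 min of the chase and 0 lower at 15, 20 and 45 min, 23 lower with glucose (30 against 0 min), 0 higher in total RNA, 0 higher and 32 lower in polysomes without glucose, 24 lower in polysomes with glucose, -0.24 for RPN2 in polysomes without glucose and 0.66 for RPN13 between chase and total RNA.

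Spike-in scaling gave 0, 1, 1, 5, 1 and 1 genes higher at 5, 10, 15, 20, 30 and 45 min, and 0, 6 and 7 lower at 20, 30 and 45 min. At 15 min the members' median was -0.14 and ECM29 -0.022. At 30 min the median was -0.13 and PRE8 -0.091, and at 45 min the median was -0.24, RPT3 -0.38, RPT6 -0.023, RPN13 -0.66 and PRE8 -0.18. With glucose 1 gene was lower at 30 against 0 min. Without glucose 1 was higher and 12 lower, the median was -0.45, RPT3 -0.58, RPN11 -0.024, RPT6 -0.31 and ECM29 -0.31.

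DESeq2 and its size factors in edgeR each gave 2 genes lower at 30 min of the chase and 3 lower at 30 against 0 min without glucose, and DESeq2 gave 1 higher for the change of polysomes. In total RNA without 4TU the median was 0.023, an alternative chosen after seeing the data, as was leaving out RPN3 and RPN5. Labelled reads alone gave 1 gene with a rising slope without glucose, RPN4 at 0.25. Conversions over covered T bases gave 7 genes lower for labelled odds in polysomes with glucose and 3 higher for the difference between conditions.

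With 1 library left out, the median at 5 min lay between -0.017 and 0.086, and genes higher numbered 0 at 5 min, 5 to 7 at 10 min, 8 to 16 at 20 min, 13 to 16 at 30 min and 13 to 21 at 45 min, and genes lower 0 to 1 at 15, 20 and 45 min and 0 to 2 at 30 min. At 30 against 0 min, 1 to 5 were lower with glucose, and 6 to 9 higher and 1 to 4 lower without it. Total RNA gave 0 to 1 higher, and polysomes 1 to 2 higher without glucose, 5 to 13 lower with glucose and 1 to 12 lower for the change. Labelled odds gave 1 to 4 higher without glucose, 2 to 18 lower with glucose and 3 to 15 higher for the difference.

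Replicate numbers were not shown to pair libraries. With the replicate block 9 genes were higher at 10 min, 19 at 30 min and 22 lower for labelled odds in polysomes with glucose, and the other counts of members called were equal to those without it. Few labelled reads limit the shares without glucose in total RNA and polysomes, and 2 libraries per group limit each test.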
